A study of Homo sapiens with 2 samples.

Results

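DNA replication licensing and S-phase genes were followed through a pair of libraries from oral cancer cells. The set holds 44 genes chosen by name, out of 24124 genes in the deposited table. All 44 were found under their own symbols, as 378 of 134092 listed transcripts. All 44 also reached at least 1 RPKM (reads corrected for transcript length and depth) in either library, the level from which genes were compared. They fall into 6 roles, which are licensing (11 genes), helicase activation (6), polymerase, clamp and ligation (15), nucleotide supply (4), E2F and cyclin E (4) and chromatin maintenance (4).

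The cells were SAS, an established human oral cancer line. ASC cells were a stable line with the plasmid pLKO.AS2 carrying ASC, the inflammasome adaptor encoded by PYCARD. Control cells carried pLKO.AS2 without it. ASC cells were assigned by their vector label, because the genotype label of that sample gives the line's name and not ASC. Both were kept in DMEM with 10% FBS, 200 µg/ml G418 and 2 µg/ml puromycin, and no source used here says whether a line was a clone or a pool. Each group had 1 library, so no difference has a replicate check, no test between conditions was possible and no p-value is given. Intervals after a ratio of reads are exact 95% intervals, corrected for library depth, and cover counting error only.

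Before replication, cells load the MCM2 to MCM7 helicase onto origins. The origin recognition complex, CDC6 and CDT1 do the loading, and geminin blocks CDT1 once S phase has begun. CDC45 and the GINS complex then activate the helicase, polymerases and the PCNA clamp follow, and nucleotide enzymes supply the precursors. E2F transcription factors drive many of these genes at the G1/S border. In RNA from whole cultures, more cells in S phase and more RNA per cell cannot be told apart.

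Listed reads numbered 31426491 in ASC cells and 31289581 in control cells. PYCARD was listed at 266.5 RPKM in ASC cells against 1.36 in control cells, in the direction of the labels. All 10 epithelial markers were compared, with a summed level of 3451 RPKM in ASC cells against 2717 in control cells. KRT8 and KRT18 carried this difference, and the other 8 markers summed to 952.1 RPKM in ASC cells against 986.6 in control cells. Of these, KRT5, KRT6A and TP63 were lower in ASC cells, KRT14, SFN and CDH1 were higher, and DSP and EPCAM were nearly level. None of 6 fibroblast markers reached 1 RPKM, and their sum was 0.696 RPKM in ASC cells against 0.273 in control cells. Of 4 endothelial markers CDH5 was compared, and the list summed to 2.84 RPKM in ASC cells against 2.14 in control cells. Among leukocyte markers CD68 was compared, at 24.1 RPKM in ASC cells against 25.9 in control cells. KDR, PECAM1, VWF and PTPRC stayed under 1 RPKM. DCN, CD3E and LYZ have no line in the table, and the part of other cells in the results was not tested.

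Most replication genes had nearly the same level in both cell lines. TYMS, CHAF1B and PRIM2 were highest in ASC cells relative to control cells, and CDT1 and MCM7 lowest. These 5 genes had a log2 ratio of RPKM + 1, ASC over control, of at least 0.32 in size. The 3 higher genes compare with 8.88% of all 12471 compared genes past that value, and the 2 lower genes with 8.72%. TYMS was the 1 gene of the set at least 1.5-fold higher, against 2.38% of compared genes, and none was 1.5-fold lower, against 1.81%. None reached 2-fold, which 0.617% of compared genes reached upward and 0.265% downward. The shares of the set past each fold were near or below those of all compared genes. The MCM7 sum includes a transcript annotated as retaining an intron, which differed more than the main coding transcript.

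Over the 44 genes the log2 ratio had a median of 0.0041 and ran between -0.56 in CDT1 and 0.64 in TYMS. Over all compared genes the median was 0.01. Quartiles were -0.18 and 0.12 in the set, and -0.14 and 0.15 in all compared genes. Of the set, 23 genes lay above 0, where 52.0% of compared genes did, and 21 below, where 48.0% did. Ratios smaller than 0.32 in size were found in 88.6% of the set and 82.4% of compared genes.

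**Figure D1:**
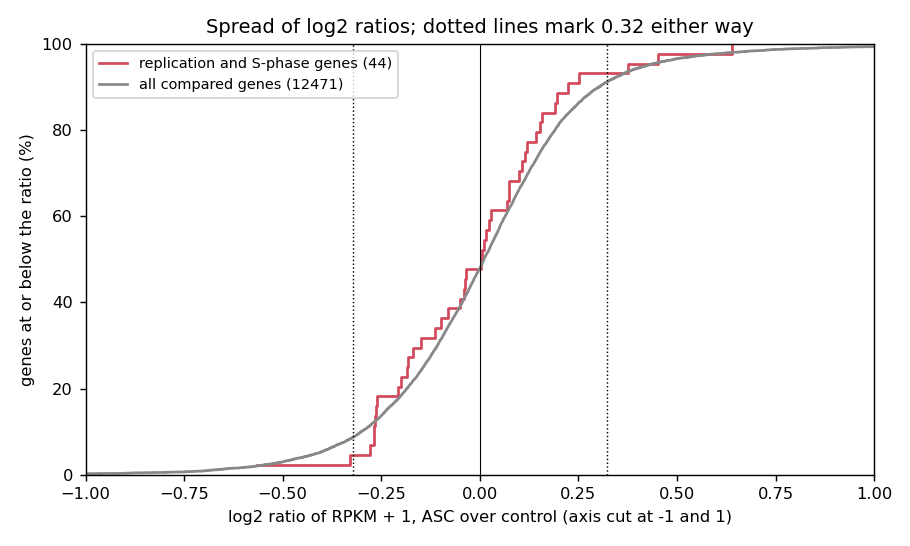
Cumulative share of genes (%) against the log2 ratio of RPKM + 1, ASC over control, for the 44 replication and S-phase genes and for all 12471 compared genes, with dotted lines at 0.32 either way. The curves lie close together, and 5 genes of the set fall outside the dotted lines.

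Counting error resolved smaller differences. The read interval lay wholly below 0 in 18 genes of the set (40.9%), where 27.0% of compared genes had such an interval. It lay wholly above 0 in 9 (20.5%), where 28.5% of compared genes did, and it spanned 0 in 17. The set is more abundant than most genes, with a median of 28.1 RPKM over both libraries against 10.8 for all compared genes, and abundant genes have narrower intervals. Why more of the set's intervals lay below 0 than above was not tested. Differences between library preparations are not in these intervals.

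**Figure D2:**
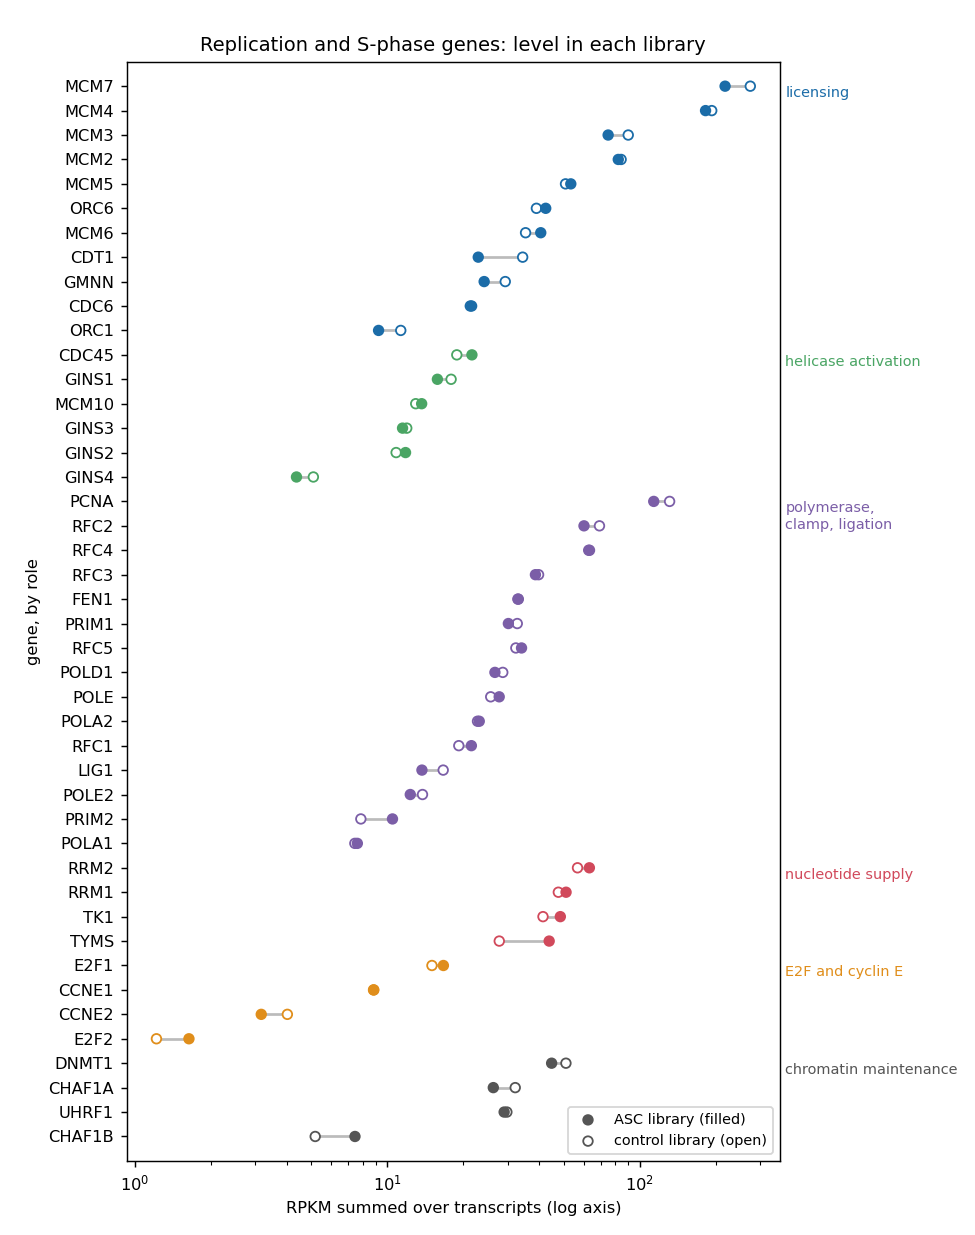
Level of each of the 44 genes in RPKM summed over its transcripts (log axis), with filled points for ASC cells and open points for control cells, grouped by role. Levels run from E2F2 at 1.64 RPKM in ASC cells against 1.22 in control cells to MCM7 at 217.7 RPKM in ASC cells against 274.01 in control cells, and most points nearly coincide.

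Upstream sequence is shown because many replication genes carry E2F sites close to their start. The 250 bases before the RefSeq start are given for the 4 licensing genes with the lowest ratios (CDT1, MCM7, GMNN and ORC1) and for the 3 genes with the highest ratios (TYMS, CHAF1B and PRIM2). They come from RefSeq, build GRCh38.p14, 5′ to 3′ on the gene's own strand. Capitals mark whole matches to TTTCCCGC, TTTCGCGC, TTTGCCGC or TTTGGCGC on either strand, and overlapping matches were counted separately.
CDT1 (chr16:88803539-88803788, plus strand): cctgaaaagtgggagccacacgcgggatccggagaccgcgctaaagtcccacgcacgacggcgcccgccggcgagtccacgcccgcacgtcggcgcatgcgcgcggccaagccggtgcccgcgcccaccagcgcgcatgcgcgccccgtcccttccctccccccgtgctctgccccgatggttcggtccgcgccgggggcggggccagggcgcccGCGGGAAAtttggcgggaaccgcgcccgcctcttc
MCM7 (chr7:100101398-100101647, minus strand): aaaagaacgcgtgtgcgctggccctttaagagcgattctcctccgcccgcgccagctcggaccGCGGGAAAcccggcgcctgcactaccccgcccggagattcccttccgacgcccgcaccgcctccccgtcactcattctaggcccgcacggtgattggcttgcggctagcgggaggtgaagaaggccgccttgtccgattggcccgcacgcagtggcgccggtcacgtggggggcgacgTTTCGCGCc
GMNN (chr6:24774687-24774936, plus strand): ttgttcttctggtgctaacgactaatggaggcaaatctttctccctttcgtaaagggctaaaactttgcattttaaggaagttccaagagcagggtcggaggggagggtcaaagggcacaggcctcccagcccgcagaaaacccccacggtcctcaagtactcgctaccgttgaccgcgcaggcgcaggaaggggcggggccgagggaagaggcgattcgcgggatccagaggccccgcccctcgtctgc
ORC1 (chr1:52404424-52404673, minus strand): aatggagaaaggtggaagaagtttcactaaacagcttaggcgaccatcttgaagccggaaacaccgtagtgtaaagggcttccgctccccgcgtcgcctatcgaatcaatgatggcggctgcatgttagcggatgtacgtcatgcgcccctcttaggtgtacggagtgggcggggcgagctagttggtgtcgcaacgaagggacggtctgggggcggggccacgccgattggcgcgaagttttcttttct
TYMS (chr18:657403-657652, plus strand): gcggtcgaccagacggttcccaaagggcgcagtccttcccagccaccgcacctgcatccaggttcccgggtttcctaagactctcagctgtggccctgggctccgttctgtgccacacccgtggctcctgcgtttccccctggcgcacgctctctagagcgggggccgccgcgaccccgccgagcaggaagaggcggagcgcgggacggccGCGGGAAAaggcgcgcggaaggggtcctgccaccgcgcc
CHAF1B (chr21:36385142-36385391, plus strand): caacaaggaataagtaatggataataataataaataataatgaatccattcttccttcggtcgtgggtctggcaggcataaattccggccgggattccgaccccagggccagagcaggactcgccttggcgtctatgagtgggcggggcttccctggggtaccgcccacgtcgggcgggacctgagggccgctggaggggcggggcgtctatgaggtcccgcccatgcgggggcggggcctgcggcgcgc
PRIM2 (chr6:57317380-57317629, plus strand): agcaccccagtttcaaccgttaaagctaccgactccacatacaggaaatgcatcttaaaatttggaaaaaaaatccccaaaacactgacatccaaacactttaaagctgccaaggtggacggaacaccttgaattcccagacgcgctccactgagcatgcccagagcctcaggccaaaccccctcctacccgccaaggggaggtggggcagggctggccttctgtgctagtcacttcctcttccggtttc
CDT1, the lowest gene, and TYMS, the highest, both held a match, from -35 to -28 in CDT1 and from -39 to -32 in TYMS, counted from 0 at the start base. MCM7 held a match from -187 to -180 and a further one from -9 to -2. These letters are not in the windows of GMNN, ORC1, CHAF1B and PRIM2. The RefSeq start of MCM7 lies 543 bases, and that of CDT1 576 bases, from the start of the gene's most read transcript, and in the other 5 genes at most 49 bases.

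RefSeq windows of 300 bases, with 250 before the start and 50 from it onward, were matched for 40 of the genes, all but MCM4, MCM5, GINS4 and CCNE2. E2F letters were in 20 of these 40 windows, against 3.31% of all 35116 windows of the RefSeq table. They were in 6 of 9 licensing windows, 3 of 5 of helicase activation, 6 of 15 of polymerase, clamp and ligation, 1 of 4 of nucleotide supply, 2 of 3 of E2F and cyclin E, and 2 of 4 of chromatin maintenance. Of 27 matches, 19 lay wholly upstream and 13 within 100 bases upstream. CCAAT, on either strand as for the motifs that follow, was in 52.5% of the windows against 34.6% of all windows. GGGCGG was in 28 of 40 windows against 15786 of 35116. TTTGAA, letters known from G2/M genes, was in 1 of 40 windows, that of RRM1, against 15.2% of all windows.

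The ratios overlapped widely between genes with and without E2F letters. With them, 20 genes had a median log2 ratio of -0.036, between -0.56 and 0.64. Without them, 20 genes had a median of 0.042, between -0.28 and 0.45. A match is a stretch of letters only, and binding was not measured.

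**Figure D3:**
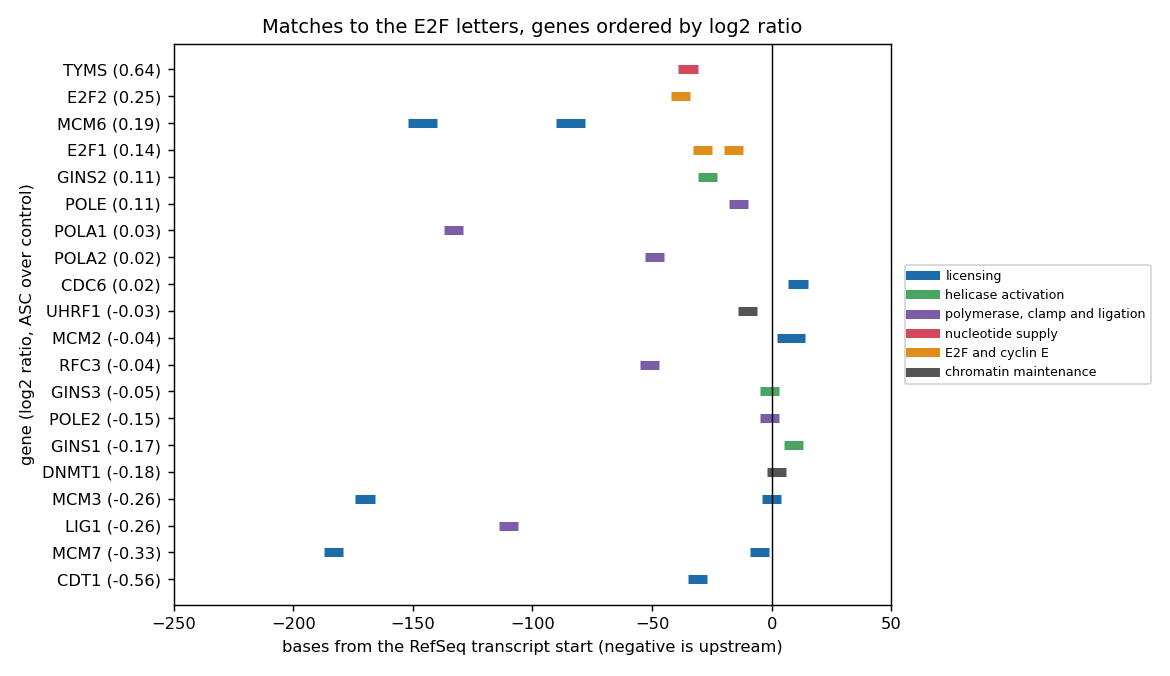
Position of each match to the E2F letters in 20 windows, in bases from the RefSeq transcript start (negative is upstream), with genes ordered by log2 ratio and coloured by role. Matches lie near the start in genes at both ends of the order, among them CDT1 at -0.56 and TYMS at 0.64.

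Licensing genes together were slightly lower in ASC cells. Their sum was 771.04 RPKM in ASC cells against 862.3 in control cells, a log2 ratio of -0.16, and the median over the 11 genes was -0.081, with 4 above 0 and 7 below. Over all compared genes 52.0% of ratios lay above 0 and 48.0% below. Read intervals of the licensing genes lay wholly below 0 in 7 and wholly above 0 in 2. Of all compared genes, 27.0% had such an interval below 0 and 28.5% above. MCM7 weighs heavily in this sum, and without it the sum was 553.3 RPKM in ASC cells against 588.3 in control cells, a log2 ratio of -0.088.

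CDT1, the factor that brings the MCM helicase to origins, had the lowest ratio of the set. Its level was 22.9 RPKM in ASC cells against 34.4 in control cells, from 2152 reads against 3222. The log2 ratio of reads was -0.59 (-0.67 to -0.51), and 2.05% of compared genes had a lower ratio of RPKM + 1. CDT1 (ENSG00000167513.8) lies on the plus strand of chromosome 16, from 88803213 to 88809258 in hg38. The protein-coding CDT1-201 held 93.5% of its reads in ASC cells against 93.3% in control cells. The 50 nearest compared genes had a median log2 ratio of 0.0041, and over 10 settings CDT1 ran between -0.58 and -0.53.

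GMNN, which encodes the CDT1 inhibitor geminin, was lower by less. Its level was 24.2 RPKM in ASC cells against 29.3 in control cells, from 1018 reads against 1249, with a log2 ratio of reads of -0.30 (-0.42 to -0.18). The ratio of CDT1 to GMNN in RPKM was 0.948 in ASC cells against 1.17 in control cells. In reads, the ratio of ASC cells over that of control cells was 0.819 (exact conditional interval 0.741 to 0.906).

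ORC1, the largest origin recognition subunit, had 9.23 RPKM in ASC cells against 11.3 in control cells, from 1037 reads against 1271, with a log2 ratio of reads of -0.30 (-0.42 to -0.18). ORC6, the smallest subunit, had 42.4 RPKM in ASC cells against 38.9 in control cells, with 0.12 (0.034 to 0.20). These subunits of 1 complex lay on opposite sides of 0, but ORC6 stood at -0.019 once the median of its 50 neighbours was subtracted. CDC6, the loading ATPase, was level at 21.6 RPKM in ASC cells against 21.3 in control cells.

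Subunits of the helicase did not share a direction. MCM7 had 217.7 RPKM in ASC cells against 274.01 in control cells, from 20076 reads against 25106, with a log2 ratio of reads of -0.33 (-0.36 to -0.30). MCM3 had 74.9 RPKM in ASC cells against 89.99 in control cells, from 7629.9 reads against 9263, with -0.29 (-0.33 to -0.24), and MCM3 lies on chromosome 6, from 52264009 to 52284881 in hg38. MCM6 lay on the other side of 0, at 40.5 RPKM in ASC cells against 35.3 in control cells, from 5361 reads against 4691, with 0.19 (0.13 to 0.24). These 3 intervals do not reach 0. MCM4 had 182.2 RPKM in ASC cells against 192.7 in control cells, with -0.063 (-0.089 to -0.036). MCM2 had 82.2 RPKM in ASC cells against 84.3 in control cells and MCM5 had 53.3 RPKM in ASC cells against 50.8 in control cells, both nearly level.

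The MCM ring holds its 6 subunits in equal number, yet their RNA levels per length, summed over all transcripts, spanned 5.37-fold in ASC cells and 7.77-fold in control cells. A large part of the MCM7 sum is a transcript annotated as retaining an intron, so these spans are not those of coding RNA. MCM7 and MCM4 were highest and MCM5 and MCM6 lowest in both. MCM2 lay above MCM3 in ASC cells and below it in control cells.

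Genes around MCM7, found on chromosome 7 (100092728 to 100101940, minus strand, hg38), were lower too. Its 50 neighbours had a median log2 ratio of -0.19, and MCM7 stood at -0.14 once this was subtracted. AP4M1, which overlaps MCM7 on the other strand, had 4.29 RPKM in ASC cells against 5.27 in control cells. Neighbours of MCM6 had a median of -0.15, and MCM6 stood at 0.35 after subtraction. Neighbours of CDT1, GMNN and MCM3 were near 0, at 0.0041, -0.015 and -0.0063. The part of chromosome position in these ratios was not tested.

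Reads of MCM7 fell mainly on 2 transcripts. MCM7-201, which is protein-coding, had 102.03 RPKM in ASC cells against 116.05 in control cells. MCM7-210, annotated as retaining an intron, had 94.3 RPKM in ASC cells against 127.8 in control cells and held 42.1% of MCM7 reads in ASC cells against 45.8% in control cells. Over all licensing genes, retained intron transcripts held 14.8% of reads in ASC cells against 17.6% in control cells, and over all genes 4.94% against 5.23%. MCM7-210 carried most of the licensing share, which without MCM7 was 4.04% in ASC cells against 4.27% in control cells. Reads are divided among transcripts by estimate, so such shares carry error beyond counting.

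Helicase activation genes were level as a group, with a sum of 78.7 RPKM in ASC cells against 77.5 in control cells and a median log2 ratio of 0.011, or -0.11 once the median of 50 neighbours was subtracted. CDC45, which joins the MCM ring to form the active helicase, had 21.6 RPKM in ASC cells against 18.8 in control cells, from 1422 reads against 1226, with a log2 ratio of reads of 0.21 (0.10 to 0.32). CDC45-201 held 84.4% of its reads in ASC cells against 86.01% in control cells. MCM10, an initiation factor, had 13.7 RPKM in ASC cells against 12.95 in control cells, and its interval spanned 0.

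The GINS genes encode the 4 parts of the complex that binds CDC45 and the MCM ring, and they differed in direction. GINS1 had 15.8 RPKM in ASC cells against 17.9 in control cells, with a log2 ratio of reads of -0.15 (-0.25 to -0.061). GINS4, the least abundant, had 4.37 RPKM in ASC cells against 5.09 in control cells, with -0.25 (-0.43 to -0.073). GINS2 had 11.8 RPKM in ASC cells against 10.8 in control cells and GINS3 had 11.5 RPKM in ASC cells against 11.9 in control cells, and both intervals spanned 0. Neighbours of GINS1 had a median of 0.13 and those of GINS4 one of 0.11, so both genes stood lower once these were subtracted, at -0.30 and -0.30.

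Polymerase, clamp and ligation genes summed to 515.8 RPKM in ASC cells against 542.8 in control cells, with a median log2 ratio of 0.0055 and 8 above 0 and 7 below. Read intervals lay wholly below 0 in 6 of these 15 genes, wholly above 0 in PRIM2 and across 0 in 8. Over all compared genes 52.0% of ratios lay above 0. Intervals lay wholly below 0 in 27.0% of them and wholly above 0 in 28.5%. PCNA, the sliding clamp, was the most abundant of them at 113.6 RPKM in ASC cells against 131.2 in control cells, from 5444 reads against 6313, with a log2 ratio of reads of -0.22 (-0.27 to -0.17). Reads of PCNA may be shared with its processed pseudogenes, so its level is uncertain.

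PRIM2, the large primase subunit, had 10.5 RPKM in ASC cells against 7.85 in control cells, from 811 reads against 633, with a log2 ratio of reads of 0.35 (0.20 to 0.50). PRIM2 (ENSG00000146143.17) lies on the plus strand of chromosome 6, from 57314805 to 57646849 in hg38, and PRIM2-207 held 98.7% of its reads in ASC cells against 99.3% in control cells. PRIM1, the catalytic primase subunit, had 30.2 RPKM in ASC cells against 32.7 in control cells, with -0.11 (-0.22 to -0.01). PRIM1 overlaps NACA on the same strand, and NACA had 680.96 RPKM in ASC cells against 719.7 in control cells. The ratio of PRIM1 to PRIM2 in RPKM was 2.88 in ASC cells against 4.17 in control cells. POLA1 and POLA2, whose products work with primase, were level at 7.604 RPKM in ASC cells against 7.43 in control cells for POLA1 and 23.1 RPKM in ASC cells against 22.8 in control cells for POLA2.

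LIG1, which joins Okazaki fragments, had 13.7 RPKM in ASC cells against 16.6 in control cells, from 1464 reads against 1664, with a log2 ratio of reads of -0.19 (-0.29 to -0.089). Its highest transcript taken alone gave a log2 ratio of RPKM + 1 of 0.0051, against -0.26 for the sum. FEN1, the nuclease that trims these fragments, was level at 33.02 RPKM in ASC cells against 32.9 in control cells. POLE, the catalytic subunit of polymerase epsilon, had 27.7 RPKM in ASC cells against 25.7 in control cells. Its log2 ratio of reads was 0.036 (-0.020 to 0.092), an interval that spanned 0. POLE2, its accessory subunit, had 12.3 RPKM in ASC cells against 13.8 in control cells, with -0.18 (-0.33 to -0.033). POLD1, the catalytic subunit of polymerase delta, had 26.7 RPKM in ASC cells against 28.7 in control cells, with -0.10 (-0.18 to -0.022). The highest transcript of POLD1 taken alone gave a log2 ratio of RPKM + 1 of -0.36.

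The clamp loader is built from RFC1 to RFC5. RFC1, its large subunit, had 21.5 RPKM in ASC cells against 19.2 in control cells, from 3443 reads against 3278, with a log2 ratio of reads of 0.065 (-0.0049 to 0.13), and RFC1-201 held 71.8% of these reads in ASC cells against 67.3% in control cells. RFC2 had 60.1 RPKM in ASC cells against 69.2 in control cells, with -0.19 (-0.26 to -0.12), while its 50 neighbours on chromosome 7 had a median of -0.20. RFC3 had 38.6 RPKM in ASC cells against 39.7 in control cells. RFC4 had 63.2 RPKM in ASC cells against 62.7 in control cells and RFC5 had 34.00 RPKM in ASC cells against 32.3 in control cells, and the read intervals of all 3 spanned 0. RFC4 was highest of the 5 in ASC cells and RFC2 in control cells.

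Nucleotide supply was the role in which all 4 genes lay above 0 in summed RPKM, where 52.0% of all compared genes did. The sum was 206.4 RPKM in ASC cells against 173.3 in control cells, a log2 ratio of 0.25, and the median was 0.19. In summed reads the log2 ratio was 0.13 (0.10 to 0.17). Read intervals lay wholly above 0 in TYMS and TK1, where 28.5% of all compared genes had such an interval, and spanned 0 in RRM1 and RRM2.

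TYMS, thymidylate synthase, makes the thymidine nucleotide for DNA and had the highest ratio of the set. Its level was 43.8 RPKM in ASC cells against 27.8 in control cells, 1.58-fold higher, from 2041 reads against 1279. The log2 ratio of reads was 0.67 (0.57 to 0.77), and 98.04% of compared genes had a lower ratio of RPKM + 1. TYMS (ENSG00000176890.15) lies on the plus strand of chromosome 18, from 657604 to 673578 in hg38. Its 50 neighbours had a median of 0.013, and over 10 settings TYMS ran between 0.60 and 0.74.

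The coding form TYMS-203 had 23.3 RPKM in ASC cells against 13.5 in control cells and held 67.6% of TYMS reads in ASC cells against 62.7% in control cells. TYMS-201, a minor form, went the other way at 0.834 RPKM in ASC cells against 1.49 in control cells. Genes that overlap TYMS on the other strand were not higher, with ENOSF1 at 11.8 RPKM in ASC cells against 13.03 in control cells and TYMSOS at 0.698 RPKM in ASC cells against 0.861 in control cells. The library kit keeps no strand, so reads in bases shared with a gene on the other strand cannot be told apart by strand. This holds here and for the other genes of the set that overlap a compared gene on the other strand, 11 in all with TYMS. Overlap was taken from whole gene spans, and its extent was not measured. Among these genes the span of RFC4 overlaps that of EIF4A2. EIF4A2 had 318.7 RPKM in ASC cells against 325.2 in control cells and is more abundant than RFC4.

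TK1, thymidine kinase, feeds the same nucleotide pool by salvage. Its level was 48.4 RPKM in ASC cells against 41.4 in control cells, from 2752 reads against 2368, with a log2 ratio of reads of 0.21 (0.13 to 0.29), and TK1-201 held 94.8% of these reads in ASC cells against 92.00% in control cells. RRM1, the large subunit of ribonucleotide reductase, had 51.04 RPKM in ASC cells against 47.6 in control cells, and its interval spanned 0.

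RRM2, the small subunit, had 63.1 RPKM in ASC cells against 56.7 in control cells, while its reads were level at 4914 reads against 4896. A short transcript annotated as retaining an intron, RRM2-207, had 10.3 RPKM in ASC cells against 3.26 in control cells and held 4.27% of RRM2 reads in ASC cells against 1.36% in control cells, and the coding RRM2-201 had 28.9 RPKM in ASC cells against 31.04 in control cells. Short transcripts weigh more in RPKM than in reads. The highest transcript alone gave RRM2 a log2 ratio of -0.10, against 0.15 for the sum. Reads of RRM2 may also be shared with its pseudogenes.

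E2F and cyclin E genes summed to 30.3 RPKM in ASC cells against 29.1 in control cells. Their median log2 ratio was 0.072, or -0.040 once the median of 50 neighbours was subtracted. E2F1, an activator of S-phase genes, had 16.7 RPKM in ASC cells against 15.02 in control cells, with a log2 ratio of reads of 0.14 (0.032 to 0.25). Its neighbours on chromosome 20 had a median of 0.17, and E2F1 stood at -0.033 once this was subtracted. E2F2, a related activator, was the least abundant gene of the set at 1.64 RPKM in ASC cells against 1.22 in control cells, from 303 reads against 226 that all fell on E2F2-201, with 0.42 (0.16 to 0.67).

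CCNE1 and CCNE2 encode the cyclin E proteins that activate CDK2. CCNE1 was level at 8.83 RPKM in ASC cells against 8.81 in control cells. CCNE2 had 3.17 RPKM in ASC cells against 4.02 in control cells, from 268 reads against 327, with a log2 ratio of reads of -0.29 (-0.53 to -0.056), and CCNE2-201 held 83.6% of these reads in ASC cells against 78.7% in control cells. INTS8, which overlaps CCNE2 on the other strand, had 12.7 RPKM in ASC cells against 15.8 in control cells, and the 50 neighbours of CCNE2 had a median of -0.22.

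Chromatin maintenance genes summed to 107.5 RPKM in ASC cells against 118.00 in control cells, with a median log2 ratio of -0.11, or 0.055 once the median of 50 neighbours was subtracted. CHAF1A and CHAF1B encode subunits of chromatin assembly factor 1, which places histones on new DNA, and they lay on opposite sides of 0. CHAF1B had 7.44 RPKM in ASC cells against 5.18 in control cells, 1.44-fold higher, from 1098 reads against 830.0, with a log2 ratio of reads of 0.40 (0.27 to 0.53). CHAF1A had 26.3 RPKM in ASC cells against 32.1 in control cells, from 3072 reads against 3682, with -0.27 (-0.34 to -0.20). CHAF1B (ENSG00000159259.7) lies on the plus strand of chromosome 21, from 36385378 to 36419015 in hg38. CHAF1B-201 held 97.3% of CHAF1B reads in ASC cells and all in control cells, while CHAF1A-201 held 99.6% of CHAF1A reads in ASC cells against 99.04% in control cells. The coding CHAF1B-201 alone had 6.69 RPKM in ASC cells against 5.18 in control cells. The highest transcript of CHAF1B gave a log2 ratio of RPKM + 1 of 0.315, against 0.45 for the sum. That sum includes CHAF1B-202, annotated as a processed transcript, with 0.696 RPKM in ASC cells and nearly none in control cells.

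The ratio of CHAF1A to CHAF1B in RPKM was 3.53 in ASC cells against 6.199 in control cells. In reads, the ratio of ASC cells over that of control cells was 0.631 (exact conditional interval 0.569 to 0.699), the lowest of 12 pairs of functional partners, which were chosen with the values known. For PRIM1 over PRIM2 it was 0.725 (exact conditional interval 0.638 to 0.823), for MCM7 over MCM6 0.6997 (exact conditional interval 0.6699 to 0.731) and for TYMS over TK1 1.37 (exact conditional interval 1.26 to 1.502). RRM2 over RRM1 and POLA2 over POLA1 had intervals that held 1. Neighbours of CHAF1A had a median log2 ratio of -0.17, and those of CHAF1B one of 0.028.

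DNMT1, which copies DNA methylation onto the new strand, had 44.7 RPKM in ASC cells against 50.98 in control cells, with a log2 ratio of reads of -0.19 (-0.24 to -0.14). UHRF1, which guides DNMT1 to such sites, was level at 29.01 RPKM in ASC cells against 29.7 in control cells. Both lie on chromosome 19, where the neighbours of DNMT1 had a median of -0.13 and those of UHRF1 one of -0.19.

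**Figure D4:**
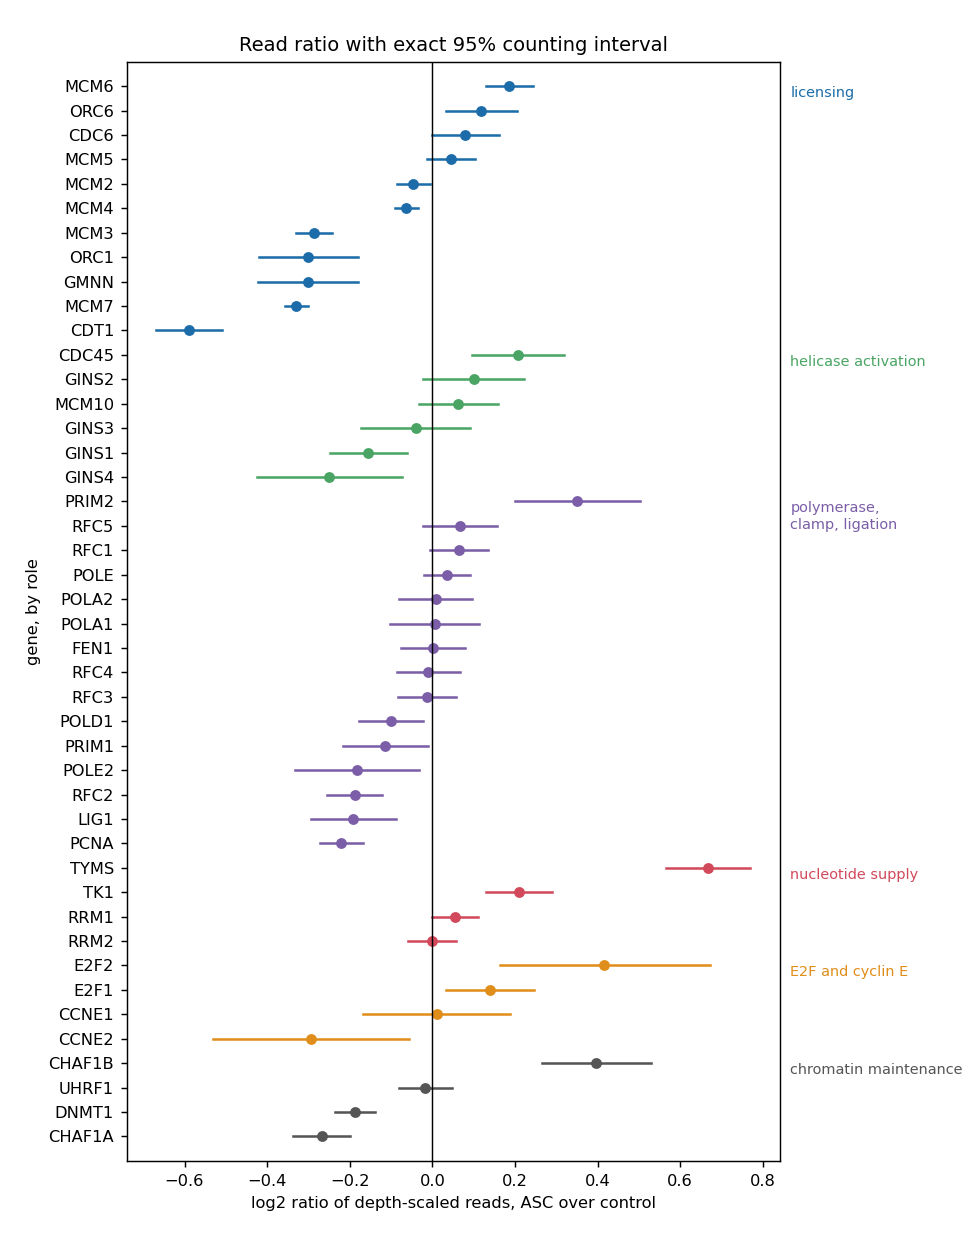
Log2 ratio of depth-scaled reads, ASC over control, for each of the 44 genes by role, with lines for the exact 95% counting interval. TYMS stands highest and CDT1 lowest, and 17 intervals span 0.

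Transcript use was much alike in both cell lines. In 43 of 44 genes the same transcript had the most reads, and in CCNE1 it was CCNE1-201 in ASC cells and CCNE1-203 in control cells. The exact intervals of these CCNE1 shares overlapped in each library, so that switch is not resolved. Such counts are not given over all genes. The share of the transcript most read in control cells differed by a median of 2.61 percentage points and by at most 12.7, in POLD1. POLD1-201 held 54.5% of POLD1 reads in ASC cells (exact interval 52.6% to 56.5%) and 67.2% in control cells (65.4% to 68.9%). POLD1-210 held 23.98% of these reads in ASC cells against 15.3% in control cells.

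Forms of GINS3, ORC1, RFC5 and MCM10 differed more than the sums of these genes. GINS3-202 held 11.5% of GINS3 reads in ASC cells against 23.5% in control cells, at 1.53 RPKM in ASC cells against 3.19 in control cells. ORC1-201 held 7.76% of ORC1 reads in ASC cells against 16.6% in control cells, while ORC1-202 had 8.496 RPKM in ASC cells against 9.39 in control cells. RFC5-204 held 54.1% of RFC5 reads in ASC cells against 64.9% in control cells. MCM10-201 had 1.28 RPKM in ASC cells against 0.623 in control cells.

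**Figure D5:**
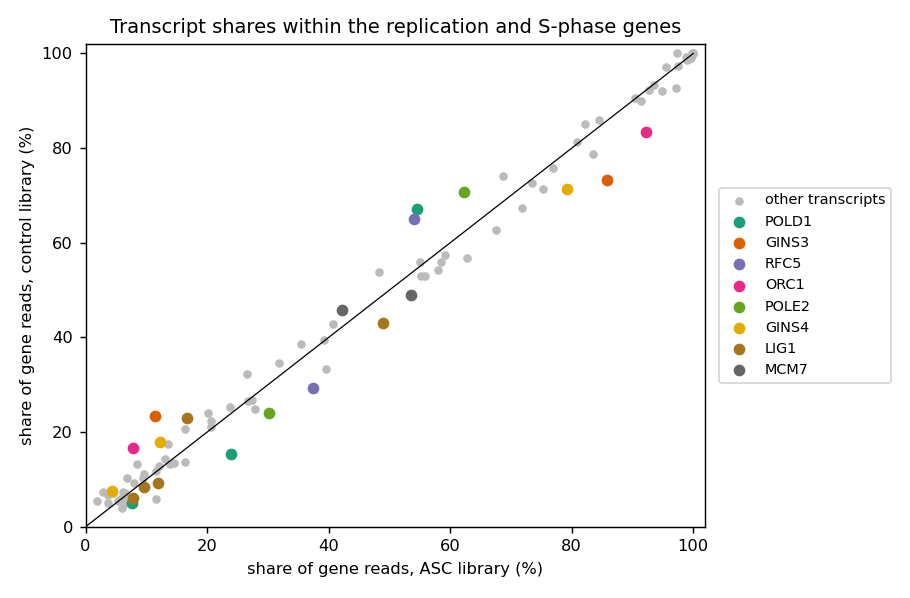
Share of each transcript in the reads of its gene (%), ASC cells on the horizontal axis and control cells on the vertical axis, for transcripts with at least 5% of reads in either. Most points lie near the diagonal, and those of POLD1, GINS3, RFC5 and ORC1 lie farther from it.

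Other genes of the pathway were measured beside the set. Of 85 further genes in 5 lists, 83 were compared, all but CDKN1C and CDKN2C. Their median log2 ratio was -0.014, with 39 above 0 and 44 below, where 52.0% and 48.0% of all compared genes lay. At least 0.32 in size were 6 higher and 6 lower genes of these 83, where 8.88% and 8.72% of all compared genes were. Among 17 origin and fork factors the median was -0.061, with 7 above 0 and 10 below. DBF4, the activator of the origin kinase CDC7, had 17.8 RPKM in ASC cells against 23.5 in control cells, and ORC4, an origin recognition subunit, had 13.6 RPKM in ASC cells against 10.4 in control cells. Among 18 polymerase and strand-processing genes the median was -0.026. RNASEH2A, a subunit of RNase H2, had 31.7 RPKM in ASC cells against 42.2 in control cells, and PCLAF, a PCNA partner, had 19.9 RPKM in ASC cells against 26.6 in control cells.

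Further nucleotide genes did not share the direction of TYMS and TK1. Of 12, there were 5 above 0 and 7 below, where 52.0% and 48.0% of all compared genes lay, with a median of -0.021. TK2, the mitochondrial thymidine kinase, had 14.5 RPKM in ASC cells against 10.5 in control cells. SAMHD1, which breaks down nucleotides, had 8.59 RPKM in ASC cells against 6.38 in control cells. CAD, which starts pyrimidine synthesis, had 27.3 RPKM in ASC cells against 34.1 in control cells.

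Among 26 compared E2F, RB and G1/S regulators there were 17 above 0 and 9 below, with a median of 0.076. Of all compared genes, 52.0% lay above 0 and 48.0% below. The D-type cyclin genes CCND2 and CCND1 had the highest ratios, with CCND2 at 36.9 RPKM in ASC cells against 25.4 in control cells and CCND1 at 145.6 RPKM in ASC cells against 104.6 in control cells. CDKN2B, an inhibitor of CDK4 and CDK6, had 11.6 RPKM in ASC cells against 14.9 in control cells. Of 10 replication-coupled chromatin genes there were 2 above 0 and 8 below, beside the same 52.0% and 48.0%, with a median of -0.092. NPAT, a coactivator of histone genes, had 3.705 RPKM in ASC cells against 5.12 in control cells.

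A list of 30 G2/M genes had a median log2 ratio of 0.19, with 23 of 30 above 0, where the replication genes had 0.0041 and 23 of 44 and 52.0% of all compared genes lay above 0. Read intervals lay wholly above 0 in 21 of the 30, beside 9 of the 44 and 28.5% of all compared genes. AURKA had the highest ratio of the list, at 46.1 RPKM in ASC cells against 31.4 in control cells. CENPF, a kinetochore protein gene, had the largest ratio in size and went the other way, at 11.9 RPKM in ASC cells against 18.5 in control cells. The median of neighbours was not subtracted for this list, so the part of chromosome position in it is not known. The difference between these lists was not tested.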

How the data were processed

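The libraries were made from poly(A) RNA after TRIzol extraction with a TruSeq kit, per the labels' protocols, and this kit keeps no strand. Per the file headers the deposited table holds estimated counts of reads for each transcript, fractional and unscaled. It also holds RPKM values, which the authors scaled to transcript length and depth. Coordinates are in hg38, as the submitters' processing notes name it. Aligner, quantifier and annotation are not named in the sources used here. Transcript names and types are those of GENCODE release 29, which holds 376 of the 378 transcripts of the set, and printed ends are the listed stop minus 1. Gene names had become dates in 285 lines, none of them of the set.

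RPKM and reads were summed per gene. Comparison was limited to genes of at least 1 RPKM in any library, as the log2 ratio of RPKM + 1, ASC over control. Read intervals are Clopper-Pearson intervals of rounded reads relative to all listed reads, a step tested on simulated data. The genes of the set and all lists were chosen with earlier results of these data known. Any gene of the set may be named, with reads and main transcript for the 8 highest and 8 lowest, and up to 4 genes per further list by size of ratio. Alternatives numbered 9: pseudocounts of 0.1 and 3, no filter, a filter at 5 RPKM, centring, TMM scaling (edgeR 4.0.16, R 4.3.3), CPM, the highest transcript, and subtraction of the median of 50 neighbours. Python 3.11.15, pandas 2.3.3, numpy 2.4.6, scipy 1.17.1 and matplotlib 3.10.9 were used.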

Additional observations from a re-analysis of the deposited data

How the results depend on the processing

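With 1 library per group, direction and size have no check beyond counting error. No paired analysis was possible because each group has 1 library. Depth limits low genes most: the half-width of the log2 read interval ran from 0.027 to 0.25 over the set.

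Over the settings in which they were compared, 12 genes stayed above 0, 16 stayed below 0 and 16 were on both sides. Values of groups and counts stayed close to the main ones, by counting error or within 1.5 times for counts, in 121 cases and moved in 8. Many of the 121 had little room to move. Every gene of the set passed the main filter, so dropping it changed nothing, and the TMM factors were 0.999 for ASC cells and 1.001 for control cells. A median near 0 could also change sign and still count as close. When each gene was given by its highest transcript, 1 gene and not 3 was higher by at least 0.32. CHAF1B at 0.315 and PRIM2 at 0.317 fell just under that line. In that setting 3 genes and not 2 were lower by at least 0.32, with POLD1 added at -0.36. The log2 ratio of summed RPKM was then -0.14 for licensing (main -0.16), 0.18 for nucleotide supply (0.25) and -0.088 for chromatin maintenance (-0.13), and the median of chromatin maintenance was -0.029 (-0.11). When the median of 50 neighbours was subtracted, 1 gene and not 2 was lower by at least 0.32, and the median of nucleotide supply was 0.27 (0.19). That subtraction changed the sign of the median in chromatin maintenance, at 0.055 (-0.11), in helicase activation, at -0.11 (0.011), in E2F and cyclin E, at -0.040 (0.072), and over the set, at -0.035 (0.0041). The median of the set and that of polymerase, clamp and ligation also lay just below 0 with centring (-0.0059 and -0.0046) and with CPM (-0.0052 and -0.0093). The cause was not tested. E2F2 and CCNE2 had no value with the filter at 5 RPKM.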

Other observations

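For 13 of the replication genes a compared gene on the other strand starts within 1000 bases of their own start. These partners had log2 ratios between -0.41 and 0.19, with a median of -0.10. PRKDC beside MCM4 had 120.2 RPKM in ASC cells against 134.8 in control cells. UFD1L beside CDC45 had 22.8 RPKM in ASC cells against 20.4 in control cells, and VPS35 beside ORC6 had 67.7 RPKM in ASC cells against 59.2 in control cells. TMEM258 beside FEN1 had 60.1 RPKM in ASC cells against 69.9 in control cells, while FEN1 itself was level.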
